A study of Drosophila melanogaster with 36 samples.

Results

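Short transposable-element loci are annotated fragments of transposable elements (TEs) in the fly genome, each taken on a single strand and spanning fewer than 3000 nt. They were found among the loci at which the study counted small interfering RNAs (siRNAs), by an identifier of a TE insertion and by the difference between locus start and end. In total, 7802 of the 13063 loci met this rule, against 1071 TE loci that were longer, 3477 cis-NAT loci (stretches where a pair of genes is transcribed in opposite directions), 709 merged overlapping annotations and 4 hairpin or other loci. The 7802 loci came from 4029 elements, of which 3773 were present on both strands.

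The study sequenced small RNAs and polyadenylated RNA of Drosophila S2 cells, an embryonic cell line, in 36 libraries that form 12 groups of 3 clonal lines. Total small RNA came from dora, hen1, hen1/dora and wild-type (WT) lines, periodate-resistant small RNA, Ago1-bound small RNA and RNA-seq came from dora and WT lines, and Ago2-bound small RNA came from hen1/dora and hen1 lines. Each line grew from a single cell after Cas9 editing, dora and hen1 name the disrupted gene, and the WT lines had received guides with no target in the genome. The Ago1-IP used a bead-bound TNRC6B fragment that binds Ago1, and the Ago2-IP used an antibody to a FLAG tag on Ago2. The hen1 gene was thus disrupted on both sides of the Ago2-IP comparison. The 3 lines of a group are separate clones of an engineered cell line, and p-values measure the spread between such clones. Locus values of the hen1/dora lines in total small RNA were not analysed here, nor were the transcripts of dora and Hen1 or markers of the cell line, and the genotype of each library was taken from its label. The total small-RNA comparisons of dora with WT lines and of hen1 with WT lines share the same 3 WT libraries, and the hen1 libraries came from another library batch than the WT libraries, so that genotype and batch cannot be told apart there.

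In fly somatic cells, double-stranded RNA from transposons and from convergent genes is cut by Dicer-2 into siRNAs, which are loaded mainly into Ago2 and silence the RNAs they match. The methyltransferase Hen1 adds a methyl group to the 3′ end of small RNAs in Ago2, and this end resists periodate, so that a periodate-treated library retains mostly Ago2-bound small RNAs. Most microRNAs (miRNAs) reside in Ago1, are unmethylated and are lost on this treatment. Dora, the fly homolog of mammalian ZSWIM8, belongs to a ubiquitin ligase that removes Argonaute together with its miRNA when the miRNA pairs extensively to certain targets, a pathway called target-directed degradation. Short TE loci are mostly old, truncated insertions. They bear on whether siRNAs of single insertions, as opposed to whole families, respond to the loss of either protein.

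The loci were short, numerous and largely distinct in sequence. Their median length was 218 nt, with a shortest of 22 nt and a longest of 2996 nt, and 602 were under 49 nt. DNA elements made up 5418 loci, LINE-like retrotransposons 1275, LTR retrotransposons 1103 and other elements 6, in 119 families. A single family, INE-1, a non-autonomous Helitron-like DNA element that is the most numerous TE of this genome, held 4192 loci. Against the genes of the Ensembl annotation of the same genome release, 530 loci (6.79%) overlapped an exon, 3463 (44.4%) lay in introns and 3809 (48.8%) lay between genes. The median locus had 69.5% of its 21-nt words in a single copy in the genome, against 0.499% in TE loci of 3000 nt or more, which shows how much more of the sequence of short fragments could be assigned to a single place. The loci closest to the limit were FBti0019381- and FBti0019381+ (Juan, 2994 and 2996 nt) and FBti0019603+ (the H element in an intron of nAChRalpha3, an acetylcholine receptor subunit, 2982 nt) on the short side, and FBti0019649- and FBti0019649+ (3S18, 3004 and 3006 nt) and FBti0019698- (micropia, 3008 nt) on the long side. FBti0019698- had 44, 60 and 39 total small-RNA reads in the 3 WT lines and FBti0019381- had 91, 62 and 56, whereas FBti0019603+ had 0 in each, so loci on the short side of the limit differed widely among themselves.

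Sequences of 4 loci are printed because the main results turn on them, taken from the RefSeq release of the dm6 assembly and written 5′ to 3′ on the strand of the locus. Lower case marks bases covered only by 21-nt words that occur once in the assembly, and capitals mark bases within a 21-nt word that occurs more often. All 4 are INE-1 fragments, the first in an intron of Dmtn on 3R, the next 2 between genes on 2L and X, and the last the 5′-most 200 bases of a locus that overlaps exons of lncRNA:CR43241 and CG42748 on 2L.
FBti0063873- (chr3R:6397779-6397873, minus strand): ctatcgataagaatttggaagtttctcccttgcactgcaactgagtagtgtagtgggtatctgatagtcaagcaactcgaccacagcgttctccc
FBti0063646- (chr2L:21954137-21954199, plus strand): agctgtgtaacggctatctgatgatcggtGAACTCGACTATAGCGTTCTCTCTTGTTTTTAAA
FBti0063655- (chrX:19326519-19326629, minus strand): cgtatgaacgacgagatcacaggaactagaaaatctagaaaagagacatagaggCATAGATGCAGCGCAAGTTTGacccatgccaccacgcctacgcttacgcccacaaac
FBti0064184- (chr2L:22132502-22132701, minus strand): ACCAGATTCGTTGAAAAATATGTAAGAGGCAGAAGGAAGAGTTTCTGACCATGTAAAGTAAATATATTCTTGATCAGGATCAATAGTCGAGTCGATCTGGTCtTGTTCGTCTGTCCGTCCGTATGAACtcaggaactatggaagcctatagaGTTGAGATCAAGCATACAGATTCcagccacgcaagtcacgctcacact
The first of these has no repeated 21-nt word in its 95 bases, while 150 of the 200 bases shown for FBti0064184- are repeated elsewhere in the genome. Over the whole 551 nt of that locus, 88.7% of the 21-nt words are single-copy.

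The identifier of each locus ends in a minus or a plus sign. A minus sign was read as the strand on which the element itself is annotated (sense) and a plus sign as the opposite strand (antisense). This reading rests on the stranded RNA-seq, in which between 94.5% and 98.2% of the fragments in TE loci of 3000 nt or more fell on loci ending in a minus sign.

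Small-RNA reads were concentrated in few of these loci. Reads were found in 3379 loci (43.3%) in at least 1 small-RNA library, whereas 4423 had none in any. Total small RNA gave a read at 1634 loci in dora or WT lines, and at 91 of them in each of the 6 libraries. The corresponding counts were 2559 and 167 after periodate, 631 and 37 in the Ago1-IP, 1388 and 95 in the Ago2-IP, and 1471 and 99 in the hen1 and WT total libraries. The 10 most abundant loci of each table held 63.1% of all short-TE reads in total small RNA, 35.7% after periodate, 89.3% in the Ago1-IP, 63.0% in the Ago2-IP and 60.3% in the hen1 and WT table. The depth behind these values was modest, with 45419 to 244056 reads per library over all 13063 loci in total small RNA and 21001 to 36168 in the Ago1-IP. A single read therefore decided whether most of the loci were detected.

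Before the comparisons, 10 short TE loci, including the most abundant of all, were set apart, because their reads moved with those of the RNA standards added during library preparation. The libraries hold reads of synthetic RNAs, the quantitative standards and the size markers. The methods of the study name the quantitative standards for total small-RNA libraries. How their reads entered the other library types was not tested. In the periodate-treated library of dora line 1 the standards had 73583 reads and the markers 450218, against 165 to 617 and 809 to 1418 in the other 5 periodate-treated libraries. In that library, 19 of all loci with at least 20 reads were more than 5 times their level in each other periodate-treated library. They were 10 short TE loci, 8 cis-NAT loci, 1 merged overlap and 0 long TE loci. Of the 26 short TE loci with at least 20 reads in that library, these 10 were at least 7.88 times higher, and no other was more than 4 times higher. This selection was made after the data were seen and used only the periodate-treated libraries.

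The 10 loci kept a near-constant level against the standards wherever standards were abundant. Per 1000 reads of the standards, they had together 46.0 reads in dora and 49.5 in WT total small RNA, 57.8 in dora and 55.3 in WT Ago1-IP, 53.4 in hen1/dora and 55.0 in hen1 Ago2-IP, 42.7 in hen1 total small RNA and 47.7 in the periodate-treated library of dora line 1. The last value is that of the library that chose the loci and is not independent of the choice. The other 7 values lay within a 1.35-fold range. These are sums, to which FBti0063873- and FBti0063646- gave 1763 and 1382 of 4299 reads in WT total small RNA. All other short TE loci together had 10.1 reads per 1000 in dora and 7.18 in WT Ago1-IP, and 31.3 to 50.3 in the other 6 values. Without the Ago1-IP their range was thus 1.61-fold, against 1.29-fold for the 10 loci, so that the contrast rests mainly on the Ago1-IP. In the other 5 periodate-treated libraries the 10 loci had 137 and 140 reads in dora lines 2 and 3 and 98, 114 and 137 in WT lines, or 159 to 691 per 1000 reads of the then scarce standards, so that a small number of their reads was present without abundant standards.

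FBti0063873-, the INE-1 fragment of 95 nt whose sequence opens the list above, was the most abundant short TE locus. It had 3662, 668 and 666 reads in dora and 611, 695 and 457 in WT total small RNA, 1417, 87 and 86 in dora and 60, 78 and 81 in WT lines after periodate, and 1016, 1218 and 1444 in dora and 1226, 1095 and 1391 in WT Ago1-IP. Dora line 1 was high in total small RNA, where that library was the deepest, and after periodate, where it was not. Its level stayed between 18.3 and 22.9 reads per 1000 reads of the standards. FBti0063646-, the intergenic INE-1 fragment of 63 nt, was next at 13.8 to 17.3, followed by FBti0063774+ (INE-1, chr3R:15871760-15872078, in an intron of CG31183) at 5.87 to 8.91 and FBti0062248- (the foldback element FB, chr2L:21334176-21334485, in an intron of dimm, which encodes a transcription factor of neuroendocrine cells) at 1.76 to 2.79. These 4 thus varied by no more than 1.58-fold across the 8 values.

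The other 6 were less abundant. FBti0060685+ (INE-1, chr3L:22844777-22845214) ranged from 0.571 to 1.13 reads per 1000 reads of the standards, FBti0059657- (the LINE-like Cr1a, chr3L:23027806-23029189, in an intron of the cell-adhesion gene nrm) from 0.748 to 1.18, FBti0063655- (INE-1, 111 nt, printed above) from 0.493 to 0.896 and FBti0063104- (the LINE-like BS4, chr3R:4582297-4583044) from 0.242 to 0.340. The widest ranges were those of FBti0019498+ (the DNA element Tc1, chr4:784156-785466, in an intron of MED26, a Mediator subunit), from 0.430 to 2.44, and FBti0019529- (the LINE-like Rt1c, chrX:1024762-1025623, intronic), from 0.206 to 0.693. Even the widest of these, 5.67-fold, was below the ranges of loci outside the set that are plotted for comparison: 66.8-fold for FBti0064184-, 46.9-fold for FBti0019381- and 154-fold for FBti0019492-. No rule chose these loci for the plot. The lowest value of FBti0019492- is 1 read in the periodate-treated library of dora line 1. The rule required high reads of the set in that library, so the range of 154-fold is no independent contrast. What these reads derive from was not tested, and results that rest on the 10 loci are given with and without them.

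**Figure D1:**
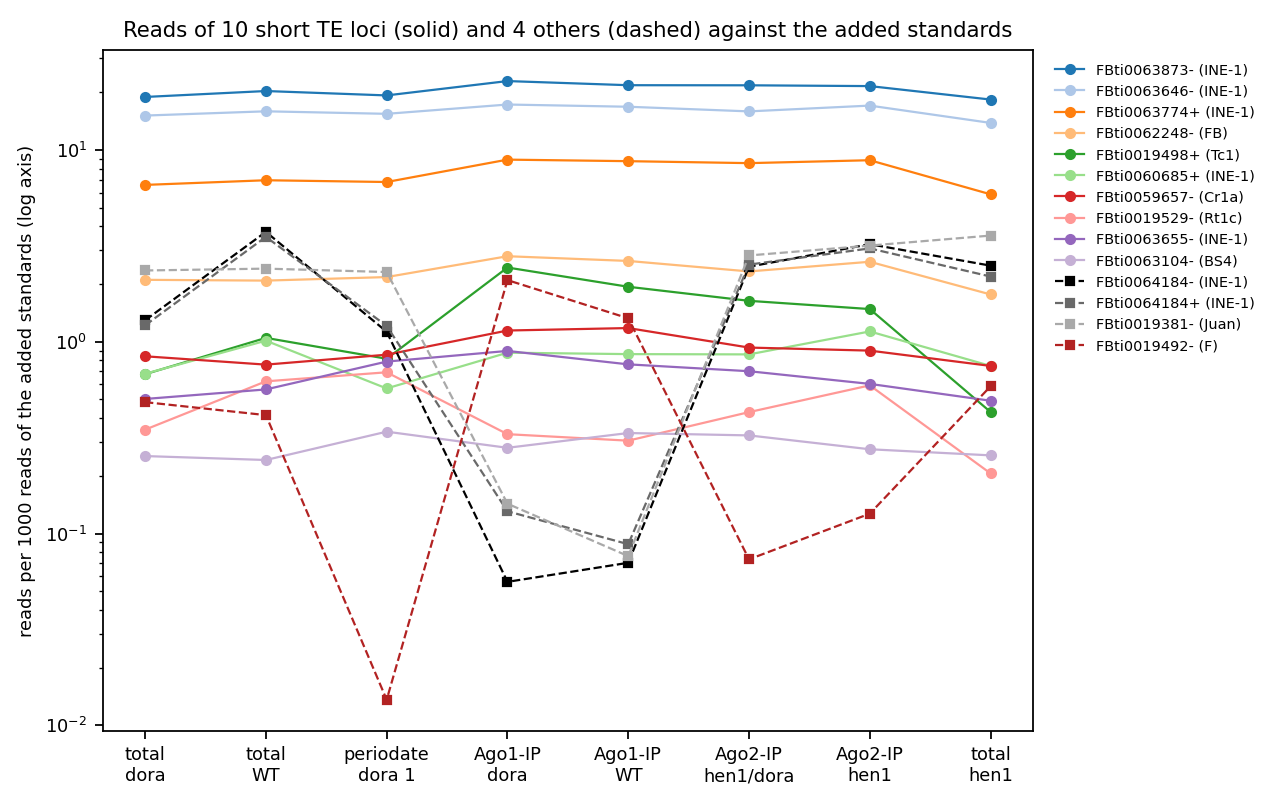
Reads per 1000 reads of the added standards (log axis) of the 10 short TE loci set apart (solid lines, circles) and of 4 other short TE loci (dashed lines, squares), with each point the sum of 3 libraries, except the single periodate-treated library of dora line 1. The 4 most abundant of the solid lines vary by no more than 1.58-fold and the most variable, FBti0019498+, by 5.67-fold, whereas FBti0064184- falls to 0.0560 and FBti0019492- reaches 2.10 in the Ago1-IP of dora lines.

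The reads of the 10 loci came almost wholly from a single strand of each element, with 6 reads on the other strand against 12159 in dora and 6 against 4299 in WT total small RNA (0.0493% and 0.139%). In the Ago1-IP the other strand had 5 against 9293 reads in dora and 8 against 9436 in WT lines. For 7 of the elements in the set the reads fell on the sense strand and for the other 3 (FBti0063774+, FBti0019498+ and FBti0060685+) on the antisense strand. Without the set, the sense strand held 54.3%, 51.4% and 53.3% of short-TE reads in dora and 53.4%, 53.2% and 53.4% in WT total small RNA, and between 49.6% and 53.0% after periodate. Near-equal reads from both strands are what cutting of double-stranded RNA yields, as background. Of 51 other elements with at least 10 reads in WT total small RNA, 33 had reads on both strands and 18 on a single strand, with a median of 55.0% on the sense strand, and 22 of the 51 had between 25% and 75% sense reads. The pooled share rests on few elements, since the 4 most abundant, with 51.5% to 54.1% sense reads each, held 58.5% of the reads of the 51. The reads of the other elements were 57.5% sense. In the Ago1-IP the remaining reads leaned to the sense strand, at 65.0%, 69.2% and 66.1% in dora and 73.0%, 70.7% and 70.4% in WT lines, without overlap between the groups. Few loci carried much of this lean. FBti0019492- alone gave 108, 127 and 102 of 317, 395 and 375 sense reads in dora lines. In WT lines it gave 85, 60 and 81 of 371, 222 and 283, and FBti0019845- gave 79, 21 and 17. Both are among 5 sense loci named below, and the share without these was not computed. Long TE loci were unlike the short ones in total small RNA, with 16.1% to 22.9% sense reads over the 6 dora and WT libraries. The contrast was smaller after periodate, where long TE loci had 31.0% to 40.1%. They had 46.8% to 49.2% in the Ago1-IP and 43.6% to 49.5% in the Ago2-IP. Short TE loci outside the set had 52.0% to 56.4% in the Ago2-IP.

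**Figure D2:**
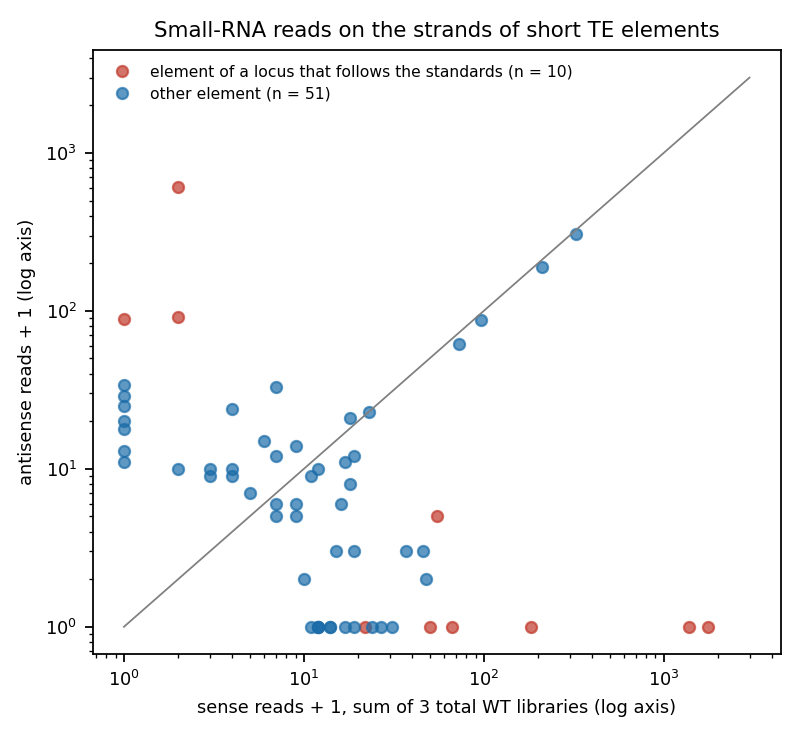
Sense against antisense small-RNA reads of short TE elements, each plus 1 on log axes, summed over 3 WT total small-RNA libraries, for elements with at least 10 reads. The 10 elements of the loci set apart (red) lie on or close to the axes, and of the 51 others (blue) 33 have reads on both strands and 18 on a single strand, with the 4 most abundant close to the line of equal reads.

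Short TE loci made up a small share of the reads in all siRNA loci, and this share was highest in the Ago1-IP. In total small RNA it was 6.54%, 6.14% and 4.42% in dora and 5.47%, 5.23% and 4.67% in WT lines. After periodate it was 7.10%, 5.10% and 3.85% in dora and 4.79%, 3.95% and 4.13% in WT lines. In the Ago2-IP it was 6.40%, 6.45% and 6.34% in hen1/dora and 6.91%, 8.01% and 6.72% in hen1 lines. The Ago1-IP stood apart, with 11.5%, 12.2% and 11.8% in dora and 14.7%, 14.4% and 14.3% in WT lines. The value of dora line 1 after periodate, the highest of its table, fell to 3.86% once all 19 loci were left out of both sums, within the range of the other lines. This fall follows from the rule that chose the set and is no independent result.

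The set held most short-TE reads of the Ago1-IP. It took 85.1% of them in dora and 88.5% in WT Ago1-IP, 54.7% in dora and 55.7% in WT total small RNA, 54.5% in hen1/dora and 55.5% in hen1 Ago2-IP, and 45.9% in hen1 total small RNA. After periodate it took 60.4%, 1.95% and 3.13% in dora lines 1, 2 and 3, against 2.97% over the WT lines. The rule that chose the set built in this contrast between dora line 1 and the other periodate-treated libraries. With all 19 loci left out of both sums, the Ago1-IP share became 4.99%, 5.26% and 4.09% in dora and 9.77%, 7.21% and 6.53% in WT lines, and the total share 3.57%, 3.97% and 2.32% in dora and 3.00%, 2.64% and 2.57% in WT lines.

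**Figure D3:**
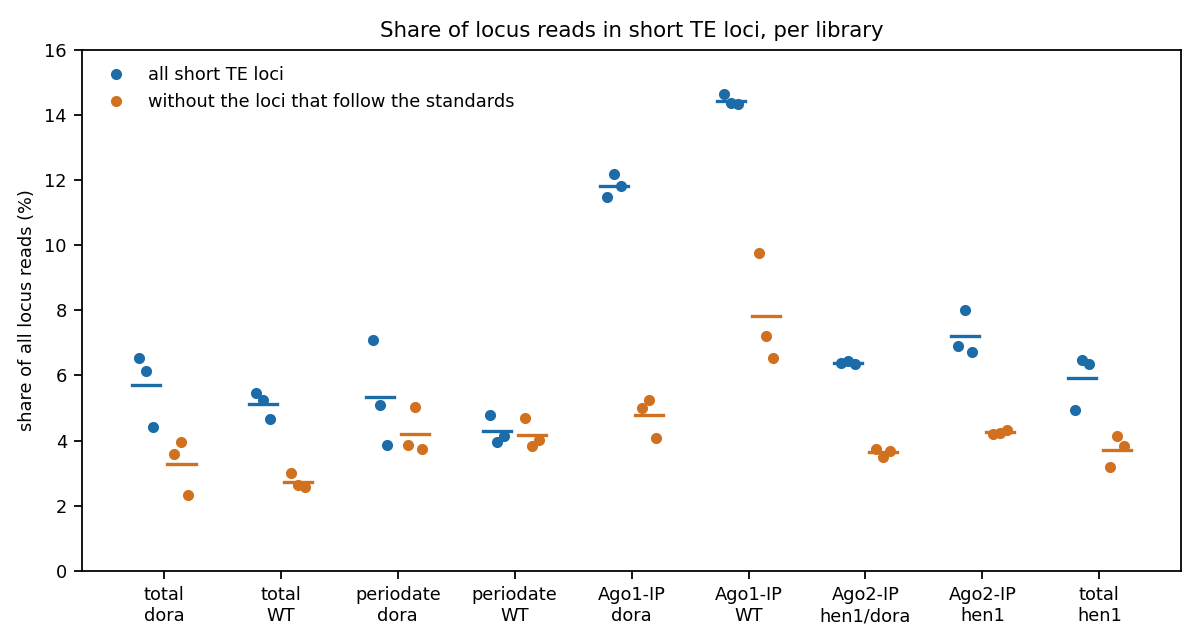
Share of the reads of all siRNA loci that fell in short TE loci (%), per library, with the mean of each group as a line. All short TE loci are in blue, and shares with all 19 loci that follow the standards left out of both sums are in orange. The Ago1-IP shares of 11.5% to 14.7% exceed all others before the set is left out, and in the total and periodate tables dora and WT lines overlap.

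The share in the Ago1-IP was lower in dora than in WT lines, by 2.62 percentage points (11.8% ± 0.35 in dora and 14.5% ± 0.18 in WT lines, SD, n = 3 each). All 3 dora lines were below all 3 WT lines, and the two-sided exact permutation test gave p = 0.1, the smallest value that 3 against 3 allows, so that no share could pass a threshold of 0.05. With all 19 loci left out of both sums the difference was -3.06 points (4.78% ± 0.61 in dora and 7.84% ± 1.71 in WT lines, exact permutation p = 0.1). Those sums also lack 8 cis-NAT loci and 1 merged overlap, and the share with only the 10 short TE loci left out was not computed. A share also depends on the other loci. Per 1000000 miRNA reads of the same library, short TE loci outside the set had 57.2, 53.5 and 66.3 reads in dora and 69.9, 61.9 and 49.7 in WT Ago1-IP. These overlapped (59.0 ± 6.60 and 60.5 ± 10.2, SD, n = 3 each, exact permutation p = 0.9). With the set, the values were 397 ± 88.5 in dora and 530 ± 56.0 in WT lines (p = 0.3 by the same exact permutation test). The standards moved with these values that include the set, at 5791 reads per 1000000 miRNA reads in dora and 8347 in WT Ago1-IP.

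In the other tables the abundances of short TE loci in dora and WT lines lay close together. Without the set, they had 608 reads per 1000000 miRNA reads in dora and 607 in WT total small RNA, as sums over 3 libraries in which the deepest dora library dominates. They include FBti0064184, an abundant insertion described with the tests, without which they were 568 in dora and 495 in WT total small RNA. Per-line values of the dora lines could not be computed there, because the deepest dora library carries a different line number in the locus table and in the miRNA table. After periodate they had 8654, 10284 and 9204 in dora and 9337, 8346 and 9716 in WT lines (9381 ± 829 and 9133 ± 707, SD, n = 3 each, exact permutation p = 0.8). With the set, dora line 1 alone was at 21873, and the dora mean became 13954 ± 6876, against 9413 ± 703 in WT lines (exact permutation p = 0.3). The high value of dora line 1 follows from the rule that chose the set. In the Ago2-IP the loci outside the set had 3060 ± 379 in hen1/dora and 3299 ± 209 in hen1 lines (SD, n = 3 each, exact permutation p = 0.5). With all 19 loci left out of both sums, their share of locus reads there was lower in all 3 hen1/dora than in all 3 hen1 lines. It was 3.65% ± 0.13 and 4.26% ± 0.07 (SD, n = 3 each, exact permutation p = 0.1). The groups thus parted by this share and overlapped per 1000000 miRNA reads. The share with only the 10 short TE loci left out was not computed.

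Among loci abundant in both library types, short TE loci outside the set rose against miRNA reads after periodate and those of the set did not. Periodate removes most miRNAs, so that such a ratio also rises through the loss of miRNA reads. As a share of locus reads, without all 19 loci, short TE loci had 2.74% ± 0.23 in WT total small RNA. After periodate this share was 4.18% ± 0.45 in WT lines (SD, n = 3 each). In WT lines, among loci with at least 10 reads in each total and each periodate-treated library, the ratio of periodate-resistant to total small RNA, both per 1000000 miRNA reads, was 3.87 to 18.0 in 9 short TE loci outside the set, with a median of 11.6. It was 0.226 for FBti0063646- and 0.562 for FBti0063873-, the set members that reached 10 reads. The rule that chose the set favours low values of this ratio in WT lines. The minimum leaves out loci with few reads after periodate. FBti0019492-, outside the set, was one of these, at 6.43 reads per 1000000 miRNA reads after periodate and 6.39 in total small RNA of WT lines. The highest ratios were those of FBti0062103+ and FBti0062103- (18.0 and 12.8), opposite strands of an LTR retrotransposon (chr4:1238222-1241095) in an intron of Cadps, and of FBti0019381- (13.5), a Juan element (LINE-like, chr3R:15132112-15135105). The lowest outside the set was FBti0060390- (3.87), a fragment of HMS-Beagle2 (LTR, chr2L:22411294-22411720), whose antisense strand FBti0060390+ had 12.6. Long TE loci had a median of 9.05 over 16 loci and cis-NAT loci without the set a median of 11.1 over 241, so that the range of short TE loci outside the set lay within that of cis-NAT loci, 4.10 to 22.8, apart from FBti0060390-.

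The ratio of the Ago1-IP to total small RNA could be taken for loci of the set only. Of the short TE loci, 9 had at least 10 reads in each WT library of both types, and all 9 belonged to the set. Their ratios ran from 0.265 (FBti0019529-) to 0.999 (FBti0019498+), with 0.839 for FBti0059657- and 0.731 for FBti0063655- next to the highest, and 0.460 for FBti0060685+ and 0.572 for FBti0063646- next to the lowest. The 3 long TE loci that passed had 0.0218 to 0.0244 and the 3 cis-NAT loci outside the set 0.0226 to 0.347. No share of Ago1 loading for siRNAs of other short TE loci could thus be read from WT lines at this depth.

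Outside the set, 5 short TE loci had at least 10 reads in every Ago1-IP library. They were sense strands of LINE-like elements, FBti0019492- (F), FBti0019232- (Ivk), FBti0060634- (G) and FBti0061200- (X), and of the DNA element HB, FBti0019845-, and they are named because the values showed them. FBti0019492- (chr4:475243-476276), in an intron of Asator, a kinase gene, and on the strand opposite to it, had 108, 127 and 102 reads in dora and 85, 60 and 81 in WT Ago1-IP. After periodate it had 1, 7 and 3 reads in dora and 4, 2 and 2 in WT lines, and in the Ago2-IP 4, 1 and 2 in hen1/dora and 7, 2 and 3 in hen1 lines. It was thus seen mainly in Ago1-IP and total libraries, where it had 100, 10 and 18 reads in dora and 11, 17 and 8 in WT lines. Its Ago1-IP difference, a log2 fold change of 0.25 (SE 0.24), did not pass the test described next (limma, adjusted p = 0.78). The antisense strand, FBti0019492+, had 2, 0 and 2 reads in dora and 1, 0 and 1 in WT Ago1-IP.

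In the main fits, no short TE locus that could be tested was called different between dora and WT lines in any library type. Loci with a value above 0 in all 6 libraries of a table, and a standard deviation below the mean in both genotypes, were fitted together with limma on log2(value + 1), with Benjamini-Hochberg adjustment over all of them and a threshold of 0.05. In simulated data such fits recovered 0% to 14.2% of 2-fold changes, so that a count of 0 does not show that changes of this size are absent. In total small RNA, 86 short TE loci were tested, 0 were higher and 0 were lower in dora than in WT lines, as for all 963 loci tested (0.0% in each direction). Their median log2 fold change was 0.15, against -0.06 over all loci tested, 10 of them had an unadjusted p under 0.05 (98 of 963 loci), and edgeR on recovered reads also called 0. Without the set the median was 0.21. The counts of 0 rest on single lines, since limma called 3 higher and 2 lower without dora line 3, 2 higher and 1 lower without dora line 2, and 1 higher without WT line 1. Over all loci tested, these fits called 9 higher and 4 lower of 1026, 2 higher and 5 lower of 995, and 2 higher and 0 lower of 1032. The groups did not overlap in 9 short TE loci that were higher in dora lines (10.5%, against 6.44% of all loci tested) and in 3 that were lower (3.49%, against 8.62%).

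Closest to the threshold was FBti0064184, the INE-1 insertion that overlaps exons of lncRNA:CR43241 and CG42748 (chr2L:22132151-22132701), whose sense sequence, on the strand opposite to both genes, is printed above. Its sense strand had values, in reads scaled to genome-mapped reads, of 6273, 6609 and 9940 in dora and 17314, 14010 and 16802 in WT lines, and its antisense strand 6160, 6472 and 7840 in dora and 16150, 13874 and 15171 in WT lines. All 3 dora lines were below all 3 WT lines on both strands, with log2 fold changes of -1.10 (SE 0.25, limma adjusted p = 0.082) and -1.15 (SE 0.23, limma adjusted p = 0.059). After periodate the sense strand had values of 11275, 18947 and 16873 in dora and 27035, 30110 and 37940 in WT lines, again without overlap, and log2 fold changes of -1.03 and -1.01 on the strands, both at a limma adjusted p of 0.47. In the Ago2-IP the reads were 112, 55 and 68 in hen1/dora and 140, 77 and 88 in hen1 lines on the sense strand, a log2 fold change of -0.44 with overlap. RNA-seq of the same sense strand gave 6.17, 5.87 and 11.1 FPKM in dora and 11.2, 18.6 and 14.1 FPKM in WT lines (35, 36 and 64 against 74, 103 and 95 fragments, log2 fold change -0.96, limma adjusted p = 0.33), so that small RNA and polyadenylated RNA of this insertion differed in the same direction without passing the test in either. On the antisense strand the RNA-seq log2 fold change was -0.12.

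After periodate 145 short TE loci were tested, and 0 were higher and 0 lower in dora than in WT lines (0.0% of 1323 loci in each direction). The median log2 fold change was 0.10, against -0.15 over all loci tested, and 21 short TE loci, of 110 loci in all, had an unadjusted p under 0.05. The groups did not overlap in 15 loci that were higher in dora lines (10.3%, against 4.46% of all loci tested) and in 9 that were lower (6.21%, against 6.95%). Among the named loci, FBti0060390- had 70, 102 and 46 reads in dora and 22, 35 and 25 in WT lines, a log2 fold change of 1.27 (SE 0.43, limma adjusted p = 0.47), and no reads of RNA-seq in any library. With dora line 3 left out, 9 short TE loci were called higher and 2 lower, so that the count of 0 rests on that line. In that fit 25 of all 1328 loci tested were called higher and 14 lower, so that the calls were not confined to short TE loci. No count test was run on the periodate table.

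In the Ago1-IP 37 short TE loci could be tested, and none was called by limma, against 2.63% of 228 loci called higher and 0.0% called lower. Their median log2 fold change was -0.31, against 0.05 over all loci tested, and 27 of the 37 were below 0. Without the set the median was -0.17, against 0.07 over all loci tested, 17 of 27 were below 0 and 2 had an unadjusted p under 0.05. The set of 10 made up a large part of them, and at log2 fold changes from -0.64 to -0.09 each of the 10 lay below 0, as did the standards per 1000000 miRNA reads given above. FBti0063873- had a value of 78149, 75974 and 98069 in dora and 98911, 119724 and 103733 in WT lines, and FBti0063774+ had 30998, 32498 and 34501 in dora and 40177, 45047 and 43328 in WT lines. These 2 differed by -0.36 and -0.39 on the log2 scale and did not pass the test. Without overlap of the groups, 4 short TE loci were higher (10.8%, against 10.1% of all loci tested) and 4 lower (10.8%, against 4.82%). Of the 37, 6 had an unadjusted p under 0.05, and edgeR on recovered reads called 1 higher and 4 lower, against 10 higher and 8 lower of all 228 loci. With dora line 3 left out, limma called 5 lower, against 13 of all 232 loci. The difference between the effect of Dora in the Ago1-IP and after periodate was tested in an interaction fit in which 15 short TE loci passed both filters, and 0 were called in either direction (0.0% of 175 loci in each direction, 0 of the 15 with an unadjusted p under 0.05).

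In the Ago2-IP of cells without Hen1, 95 short TE loci were tested and 1 was lower in hen1/dora than in hen1 lines, against 0.0861% of 1162 loci in each direction. It was FBti0019845-, an HB element in an intron of nolo (chr2L:21705310-21706713), with 3, 3 and 12 reads in hen1/dora and 157, 57 and 11 in hen1 lines. By scaled value the groups did not overlap, at 405, 497 and 1810 in hen1/dora and 22222, 7662 and 2129 in hen1 lines, though hen1 line 3 was close to hen1/dora line 3 and had 1 read fewer. The difference was a log2 fold change of -3.32 (SE 0.55, limma adjusted p = 0.00057). This locus also varied between lines of a single genotype elsewhere, with 12, 29 and 24 reads in dora and 79, 21 and 17 in WT Ago1-IP, and 17, 14 and 23 in dora and 31, 22 and 75 in WT lines after periodate. Over its 11 alternative fits the adjusted p ran from 8.7e-15 to 0.14, and without hen1 line 2 it no longer passed the filter. The median over the 95 loci was -0.01, against -0.01 over all loci tested, and 10 of them had an unadjusted p under 0.05. The groups did not overlap in 7 loci that were higher (7.37%, against 5.77% of all loci tested) and in 3 that were lower (3.16%, against 5.51%).

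**Figure D4:**
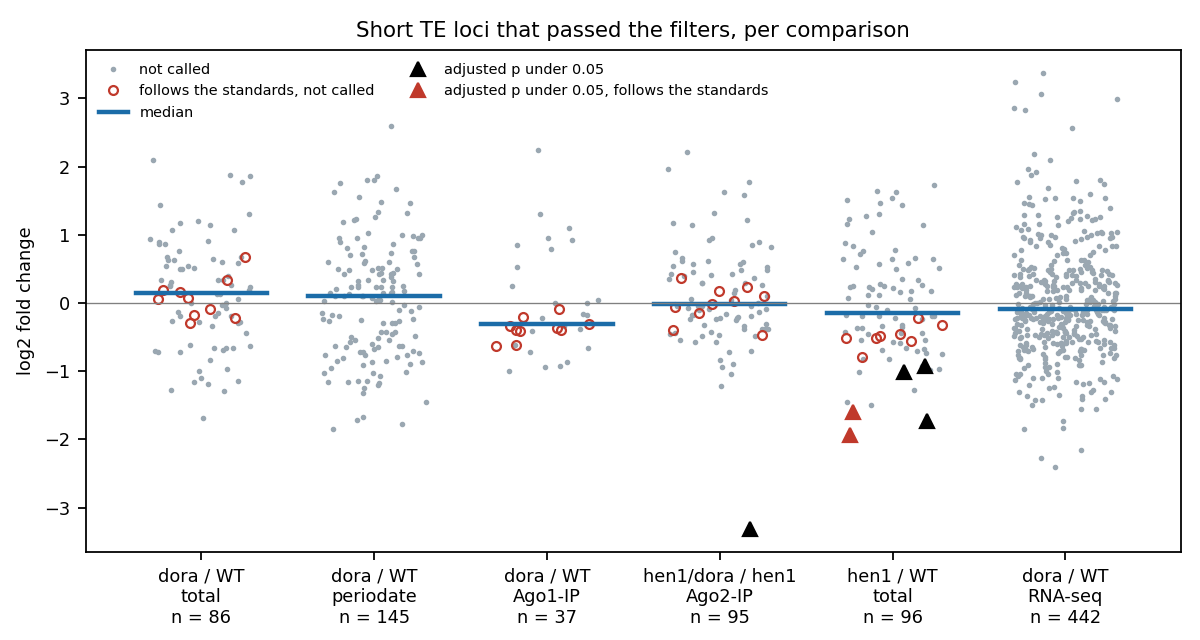
Log2 fold changes of the short TE loci that passed the filters in each comparison, with the median as a blue line, loci past an adjusted p of 0.05 as triangles and the loci that follow the standards in red. Medians lie between -0.31 (Ago1-IP) and 0.15 (total small RNA), and the called loci are 1 in the Ago2-IP and 5 in the comparison of hen1 with WT lines, of which 2 belong to the set.

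In total small RNA, 5 short TE loci were lower and 0 higher in hen1 than in WT lines. The authors' counts were compared by the quasi-likelihood test of edgeR, with library sizes set to the reads of 15 miRNAs that are abundant, mostly in Ago1 and insensitive to Dora, because the hen1 and WT libraries came from separate batches. Of 96 short TE loci tested, 0 were higher (1.7% of all 1002 loci tested) and 5 were lower (7.09% of all loci), with a median log2 fold change of -0.14, against -0.30 over all loci. The direction depends on the scaling. With TMM, which assumes that most loci do not change, 9 short TE loci were higher and 2 lower (4.09% and 4.89% of all loci), and their median was 0.10, against -0.04 over all loci. Without overlap of the groups, 14 short TE loci were higher (14.6%, against 7.29% of all loci) and 14 lower (14.6%, against 20.6%).

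Of the 5 loci that fell, 2 belong to the set of 10. FBti0019498+ (Tc1, intron of MED26) had 5.28, 5.80 and 9.54 reads per 1000000 reads of the miRNA cohort in hen1 and 24.4, 17.0 and 21.9 in WT lines (log2 fold change -1.60, SE 0.39, edgeR adjusted p = 0.0012). FBti0019529- (Rt1c) had 3.11, 3.05 and 3.76 in hen1 and 8.99, 10.3 and 20.1 in WT lines (log2 fold change -1.93, SE 0.47, edgeR adjusted p = 0.0015). Both were below all WT lines in all hen1 lines. They have the widest ranges against the standards within the set, 5.67-fold and 3.37-fold, and so followed the standards least. The standards themselves were lower, at 12669 reads per 1000000 miRNA reads in hen1 and 15428 in WT lines, and all 10 loci of the set had negative log2 fold changes, of which the other 8 did not pass the test.

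FBti0064184 accounted for a further 2 of the 5. Its sense strand had 46.0, 35.1 and 39.6 reads per 1000000 cohort reads in hen1 and 76.4, 62.5 and 90.2 in WT lines, and its antisense strand 46.3, 24.1 and 35.6 in hen1 and 71.3, 61.9 and 81.5 in WT lines. No hen1 line reached the lowest WT line on either strand, with log2 fold changes of -0.92 (SE 0.28, edgeR adjusted p = 0.015) and -1.01 (SE 0.29, edgeR adjusted p = 0.011). With TMM neither passed (edgeR adjusted p = 0.085 and 0.056). The same WT libraries serve as the controls of the dora comparison above, in which this insertion had the lowest adjusted p among short TE loci. The remaining call was FBti0060634- (a G element in an intron of Nipped-A), with 0.932, 0.611 and 2.02 in hen1 and 1.93, 6.68 and 3.50 in WT lines, which overlap (edgeR adjusted p = 0.047). It lost its call in 8 of 11 alternative fits.

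Summed over all short TE loci, reads per 1000000 miRNA reads were 1120, 1189 and 1221 in hen1 and 1369, 1351 and 1401 in WT lines, a difference of -197 (1177 ± 51.8 and 1373 ± 25.2, SD, n = 3 each, exact permutation p = 0.1, the smallest possible). All hen1 lines were below all WT lines. Without the set they were 646, 650 and 617 in hen1 and 621, 558 and 657 in WT lines, which overlap (638 ± 18.3 and 612 ± 50.3, SD, n = 3 each, exact permutation p = 0.7). The sum was thus lower in hen1 lines only with the 10 loci that follow the standards. Per 1000000 cohort reads the loci outside the set had 811 ± 23.8 in hen1 and 795 ± 80.7 in WT lines, and without FBti0064184 as well 736 ± 31.1 in hen1 and 647 ± 57.2 in WT lines, with no overlap (SD, n = 3 each, exact permutation p = 0.8 and 0.1).

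Families of elements contributed very unequally to the reads outside the set. In WT lines INE-1 gave 37.3% of the total and 34.9% of the periodate-resistant reads of short TE loci, from 4187 loci of which 290 had a read in WT total small RNA. Juan gave 11.7% and 8.33% from 8 loci, the LTR family of FBti0062103 gave 7.73% and 13.2% from 56, HMS-Beagle2 gave 5.33% and 2.81% from 9, and the LINE-like jockey gave 3.72% and 3.24% from 151. Single elements carried much of these reads in WT total small RNA. FBti0019381 gave all 399 of Juan, FBti0060390 all 182 of HMS-Beagle2, FBti0062103 gave 50.4% of its family and FBti0064184 gave 49.5% of INE-1 (631 of 1275). Only 3.26% of the 21-nt words of FBti0019381- and 20.6% of those of FBti0060390- are single-copy, against 59.6% in FBti0062103-. How many reads counted at the first of these elements came from that insertion was not tested, and the same holds for FBti0060390. Of the other listed families, the LTR elements mdg1, roo and copia had 22, 18 and 2 reads in WT total small RNA from 26, 48 and 12 short loci, the F element had 51 from 51, and blood, with 4 short loci, was under the 5 loci required for a family.

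The hen1 and WT lines did not overlap in several families, and in some of them this rested on a single element. The LTR family of FBti0062103 had 140, 159 and 108 reads per 1000000 cohort reads in hen1 and 74.5, 55.2 and 49.9 in WT lines, 2.26 times as many (135 ± 25.9 and 59.9 ± 12.9, SD, n = 3 each). Without FBti0062103 it was 2.76 times as many, again with no overlap. INE-1 outside the set had 258, 245 and 231 in hen1 and 299, 276 and 310 in WT lines (0.83 times). This direction was that of FBti0064184, because without it INE-1 had 166, 186 and 156 in hen1 and 152, 152 and 138 in WT lines, 1.15 times as many and without overlap (169 ± 15.2 and 147 ± 7.67, SD, n = 3 each, exact permutation p = 0.1). The LTR element invader1 had 0.621, 0.916 and 0.867 in hen1 and 5.14, 3.64 and 10.5 in WT lines (0.125 times), on 26 reads in all WT libraries. The DNA element Tc1-2 had 3.11, 3.97 and 4.63 in hen1 and 6.42, 8.50 and 10.5 in WT lines (0.46 times). Without their most abundant elements, which gave 61.5% of the reads of invader1 and 66.7% of those of Tc1-2, the lines overlapped in both families. Of the 23 families with at least 20 reads in WT total small RNA, these 4, FB and Rt1b had groups that did not overlap, each at the smallest possible exact permutation p of 0.1, which none of 23 comparisons can carry below a threshold of 0.05. Within the family of FBti0062103, its sense strand FBti0062103- had 32.3, 36.0 and 23.7 in hen1 and 23.8, 10.9 and 14.9 in WT lines (log2 fold change 0.89, edgeR adjusted p = 0.064).

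Family sums after loss of Dora are given as sums over lines, with no test. Jockey loci had 49.3 reads per 1000000 miRNA reads in dora and 22.6 in WT total small RNA, 606 in dora and 297.5 in WT lines after periodate, and 4250 RNA-seq fragments in dora and 2164 in WT lines. A single locus, FBti0020420-, had 3200 of these fragments in dora and 1572 in WT lines. It had 0 small-RNA reads in WT total small RNA and 1 in WT lines after periodate. After periodate the lines had 218, 454 and 181 jockey reads in dora and 73, 113 and 184 in WT lines, which overlap. INE-1 outside the set had 187 in dora and 226 in WT total small RNA and 2827 in dora and 3197 in WT lines after periodate. Without FBti0064184 the direction turned, at 147 in dora and 114 in WT total small RNA and 2214 in dora and 1913 in WT lines after periodate. The family of FBti0062103 had 55.3 in dora and 46.9 in WT total small RNA and 1450 in dora and 1206 in WT lines after periodate. HB had 56.9 in hen1/dora and 234 in hen1 Ago2-IP, and FBti0019845- above had most of the reads in hen1 lines. The F element stood out in the Ago1-IP, with 12.6 in dora and 11.3 in WT lines, more than INE-1 (9.83 in dora and 11.6 in WT lines) in dora lines, and FBti0019492- gave nearly all of it.

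The share of loci with a read rose with length, and reads per kilobase did not rise throughout. Without the set, 2.13% of the loci under 100 nt had a read in WT total small RNA, 6.62% of those from 100 to under 300 nt, 14.97% of those from 300 to under 1000 nt and 20.7% of the longer ones. Per kilobase of locus they had 0.609, 0.754, 1.62 and 0.804 reads over the 3 WT libraries. The value of 1.62 includes FBti0064184, which had 631 of the 1744 reads, and with the set the loci under 100 nt had 25.1. All short TE loci together had 2.39 reads per kilobase, 1.06 without the set, against 2.11 in TE loci of 3000 nt or more. Reads were found at 16.4% of exonic, 9.89% of intronic and 8.15% of intergenic loci outside the set. The exonic loci, which include FBti0064184, had 87.1 reads per 1000000 miRNA reads in dora and 149 in WT total small RNA. Without that insertion they had 46.9 in dora and 36.6 in WT lines, so that the lower level of exonic loci in dora lines was that of FBti0064184. By the same measure, intronic loci outside the set had 197 in dora and 185 in WT lines and intergenic ones 325 in dora and 274 in WT lines.

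Polyadenylated RNA was read at 888, 1047 and 1068 of the loci in dora and at 1074, 996 and 1195 in WT lines. A fragment was found at 2057 short TE loci in at least 1 RNA-seq library and at 463 in each of the 6. The number of fragments, recovered from the FPKM values and locus lengths, was 16618, 19023 and 17101 in dora and 18934, 15696 and 17325 in WT lines. The sense strand held 69.2%, 70.1% and 64.7% of them in dora and 66.2%, 62.4% and 64.2% in WT lines, far less than in long TE loci. In bulk RNA, more cells with a transcript and more RNA per cell cannot be told apart.

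FPKM values of the shortest loci rest on very few fragments. In WT line 1 a single fragment was worth 4324 FPKM in a locus of 49 nt, 436 at 60 nt, 26.9 at 100 nt, 0.524 at 300 nt and 0.0659 at 1000 nt. Loci under 100 nt therefore held 55.8% to 74.0% of the summed FPKM of short TE loci but 0.975% to 1.76% of their fragments. Of the 66 loci with at least 100 FPKM in WT line 1, 21 had 3 fragments or fewer, and the longest was 622 nt. FBti0063207- (INE-1, 50 nt, chr2R:5738199-5738248) was among the 5 highest by mean FPKM in WT lines with 2, 1 and 2 fragments in dora and 0, 3 and 0 in WT lines. By fragments the most abundant was FBti0020044- (the LINE-like BS, 127 nt, chr3L:5926374-5926500, in an intron of CG33523), with 1466, 1662 and 522 in dora and 912, 506 and 365 in WT lines (log2 fold change 1.07, SE 0.56, limma adjusted p = 0.47). It had 0 reads in every small-RNA library, and 6.54% of its 21-nt words are single-copy.

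**Figure D5:**
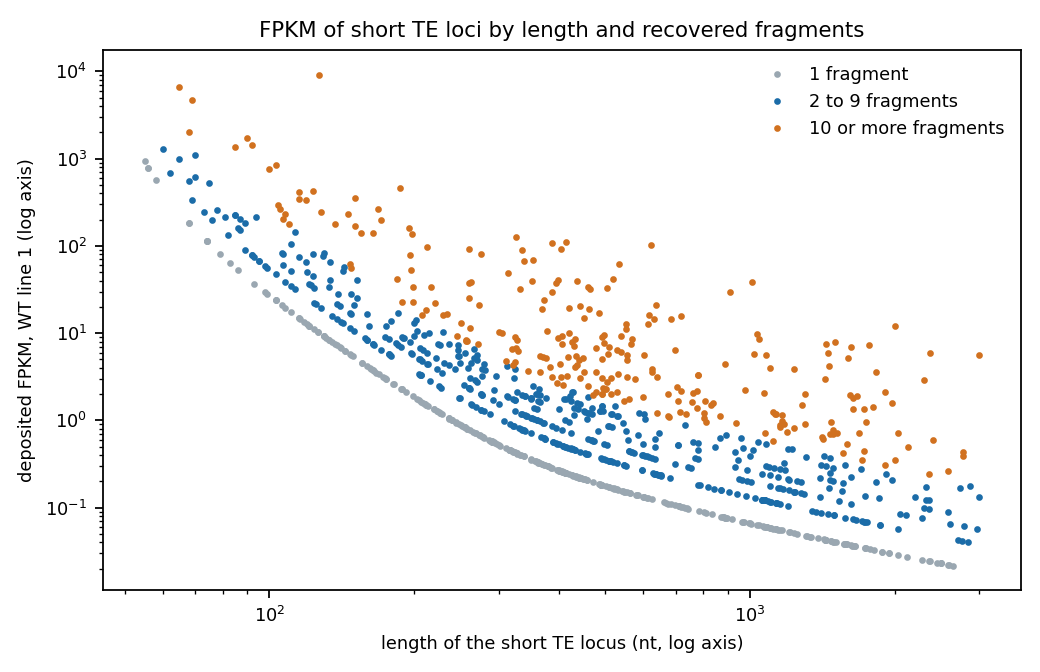
Deposited FPKM of short TE loci in WT line 1 against locus length (both log axes), coloured by the number of recovered fragments. The lower edge is the value of a single fragment, which falls steeply with length, 4324 FPKM at 49 nt and 0.0659 at 1000 nt, so that high FPKM in short loci can stand for few fragments.

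Transcribed and siRNA-producing loci overlapped in part. Of 477 short TE loci with at least 10 fragments over the WT libraries, 216 (45.3%) had a read in WT total small RNA and 23 had at least 10. Among the 6113 loci without a fragment, 5.41% had a read. Conversely, of the 59 loci with at least 10 reads, 25 had no fragment on the same strand, and 9 of these 25 belong to the set. Both strands of FBti0060390 had siRNA reads in all small-RNA libraries and 0 fragments, whereas FBti0019381- had 233, 249 and 316 fragments in dora and 300, 254 and 304 in WT lines together with abundant siRNAs. Few of the 21-nt words of either are single-copy (20.6% in FBti0060390- and 3.26% in FBti0019381-), so their reads and fragments need not come from these insertions.

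In polyadenylated RNA, 0 of 442 short TE loci were called higher and 0 lower in dora than in WT lines by limma on log2(FPKM + 0.01), against 0.0% of 1921 loci in each direction. The median log2 fold change was -0.09, against -0.12 over all loci, and 72 short TE loci, of 253 loci in all, had an unadjusted p under 0.05. The groups did not overlap in 44 that were higher in dora lines (9.95%, against 6.66% of all loci tested) and in 41 that were lower (9.28%, against 12.6%). The lowest adjusted p, 0.099, was reached by FBti0019492-, the F element seen in the Ago1-IP. It had 17, 8 and 5 fragments in dora and 1, 1 and 1 in WT lines (1.25, 0.546 and 0.363 FPKM, against 0.0633, 0.0756 and 0.0622 FPKM), a log2 fold change of 3.06 (SE 0.51). Its antisense strand, which is that of the Asator transcript, had 108, 184 and 172 fragments in dora and 153, 129 and 125 in WT lines, with a log2 fold change of 0.26. Thus the sense strand alone was higher in all dora lines, on few fragments. edgeR on the recovered fragments of TE loci, an alternative added after the data were seen, called 11 short TE loci higher and 2 lower, and with a minimum mean of 10 fragments it called 0 in either direction. The first of these fits held 580 TE loci, 442 of them short, and called 11 higher and 3 lower over all.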

How the data were processed

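The members, lists and tests were chosen with earlier results of these data known. The authors trimmed reads with cutadapt, aligned them to dm6 with STAR 2.4 and summed them per locus with Cufflinks and CuffDiff 2.2.1. The deposited small-RNA locus tables hold a signal, reads scaled to genome-mapped reads not corrected for length. Nearly all values were whole multiples of the worth of 1 read, and dividing by it gave reads (99.9% or more whole within 0.05). The authors deposited counts for the hen1 comparison and for miRNAs, and FPKM for RNA-seq, from which fragments were recovered. No columns of the tables were left unused (0), and the WT22 column was taken as WT line 2. Ago2-IP columns, whose names are also titles of total libraries, were assigned by group through the table that the labels name.

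Software was limma 3.58.1, edgeR 4.0.16 and DESeq2 1.42.0 under R 4.3.3, with pandas 2.3.3, scipy 1.17.1, numpy 2.4.6 and matplotlib 3.10.9 under Python 3.11.15. limma used log2(value + 1), or 0.01 for FPKM, over loci with no 0 value and a standard deviation below the mean in both genotypes. edgeR's quasi-likelihood test was used for the hen1 counts. Fits were tested on simulated data with an assumed dispersion. Of tested loci changed 2-fold, 4.32% were recovered in total small RNA, 0% after periodate and 9.77% in the Ago1-IP. The values were 14.2% in the Ago2-IP, 3.9% in RNA-seq and 3.82% for Hen1. Of those changed 4-fold, 69.1% to 80.5% were recovered. All 7802 identifiers matched an element of the RefSeq annotation of dm6. Genes came from the Ensembl annotation. Named loci were the 12 most abundant in WT total small RNA, called loci without overlap, the 3 highest and lowest enrichment ratios, the 3 loci on each side of the length limit and the 5 highest by FPKM. Families named were the 8 most abundant and a list fixed with the design, and those whose names are digits only are named by a member or left out. The alternatives were other pseudocounts, filters, scalings and tools, a length limit of 1000 nt, a replicate block, each library left out and, added after the data were seen, the loci that follow the standards left out, FBti0064184 or the most abundant element of each family left out, and edgeR on RNA-seq fragments. Values reflect counting of PCR reads without molecular identifiers.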

Additional observations from a re-analysis of the deposited data

Results flagged for a closer look

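A single locus moved in opposite directions in the libraries of 2 types. FBti0063774+, an INE-1 fragment of the set that follows the standards, was higher in every dora than in every WT line in total small RNA, by 0.19 on the log2 scale (values 35807, 32496 and 32059 in dora and 31281, 31285 and 25938 in WT lines), and lower in every dora line in the Ago1-IP, at -0.39. Per 1000000 miRNA reads, as sums over lines, its level in total small RNA was 105 in dora and 107 in WT lines, and per 1000 reads of the standards 6.58 in dora and 6.95 in WT lines, so that the higher level in dora lines depends on the scaling. Neither difference passed its own test, and the difference between them was not tested.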

How the results depend on the processing

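No called value changed sign, whereas medians near 0, none of them called, did. The periodate median of 0.10 became -0.078 when scaled to the locus total, -0.024 with the limit of 1000 nt and -0.063 without dora line 2, and the Ago2-IP median of -0.01 became 0.017 with a minimum mean of 10 reads and 0.071 with edgeR. The difference in Ago1-IP share was -1.56 points without the highest locus and -3.06 with all 19 loci left out of both sums. Results that turned on the 10 loci set apart were the differences per 1000000 miRNA reads and the Hen1 test. Without the 10 loci these differences were -1.53 in the Ago1-IP and 25.8 between hen1 and WT lines. The Hen1 test then had 3 lower and a median log2 fold change of 0.066. With the set, and cohort reads as the denominator, the differences per 1000000 reads were 26387 after periodate and -287 for Hen1.

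In total small RNA the median became 0.32 with a minimum mean of 10 reads. In the Ago1-IP, edgeR called 1 higher and 4 lower (10 and 8 over all 228 loci), and scaling to the locus total gave 3 lower (7 over all loci). In the Ago2-IP, edgeR called 1 higher, the call of 1 lower became 0 with the limit of 1000 nt or a minimum mean of 10 reads, and scaling to the locus total gave a median of -0.16. RNA-seq calls became 4 higher and 4 lower with a minimum mean of 0.1 FPKM (6 and 9 over all 3533 loci), and 11 higher and 2 lower with edgeR on fragments (11 and 3 over 580 TE loci). For Hen1, TMM gave 9 higher, 2 lower and a median of 0.10, and the minimum mean 1 higher and a median of 0.064.

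Lines of the same number did not deviate together (correlations -0.11 to 0.18 over the tables), so they share only a number. With a replicate block, total small RNA had 3 higher and 2 lower, the Ago2-IP 2 higher and Hen1 7 higher, and the block changed no other call count by over 1.5 times. Over all loci tested the block gave 6 higher and 7 lower in total small RNA, 9 higher in the Ago2-IP and 29 higher for Hen1.

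With each line left out in turn, calls ranged from 0 to 3 higher and 0 to 2 lower in total small RNA, 0 to 9 higher and 0 to 2 lower after periodate (the highest without dora line 3), 0 to 5 lower in the Ago1-IP (5 without dora line 3), 0 to 2 higher and 0 to 1 lower in the Ago2-IP, and 0 to 3 higher and 1 to 5 lower for Hen1 (1 without WT line 3). Over all loci tested, the fits without dora line 3 called 25 higher and 14 lower after periodate and 13 lower in the Ago1-IP. Medians ranged from 0.025 (without hen1/dora line 2) to 0.12 in the Ago2-IP, from -0.12 to 0.060 in RNA-seq, and from -0.22 to 0.28 in the interaction fit. Loss of Dora in hen1 cells in total small RNA, per-line values per 1000000 miRNA reads for total dora and a count test after periodate were not run. The cause of these changes was not tested.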
